A study of Homo sapiens with 26 samples.

Results

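The insulin-like growth factor (IGF) binding proteins and the receptors and adaptors of insulin and IGF signalling were followed in cultured human bronchial epithelial cells. The 10 genes were taken by symbol from the deposited count table, which lists 58735 genes: IGFBP2, IGFBP3, IGFBP4, IGFBP5, IGFBP6, IGFBP7, IGF1R, INSR, IRS1 and IRS2. The cells were 16HBE14o-, a bronchial epithelial line with wild-type CFTR (WT), and 16HBEge, a line with DeltaF508 CFTR, the common cystic fibrosis mutation (CF). Each genotype was represented by 1 line, so genotype and line cannot be told apart. Cells on Transwell filters were kept for 7 days in medium with 5.5 mM glucose (normal glucose) or 17.5 mM glucose (high glucose), and 2 Transwells were pooled for each library. Poly-A RNA was sequenced from 6 WT libraries in normal glucose, 5 WT libraries in high glucose, 6 CF libraries in normal glucose and 6 CF libraries in high glucose. A further group held 3 WT libraries in normal glucose whose cells are labelled as not polarized. How those cells were kept from polarizing, their days in culture and whether Transwells were used or pooled are not stated in the labels. What insulin or IGF any medium held is not stated there either.

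IGF-1, IGF-2 and insulin act through the receptor tyrosine kinases IGF1R and INSR, which phosphorylate the adaptors IRS1 and IRS2, and these recruit PI3-kinase and so activate AKT. The secreted IGF binding proteins hold IGFs in the fluid around cells, where they limit or prolong access to IGF1R, and proteases such as PAPPA release the ligand. IGFBP7 binds IGFs only weakly. AKT keeps FOXO transcription factors out of the nucleus, and FOXO factors are known to raise transcription of INSR and IRS2 in several tissues, so the pathway feeds back on its own receptors.

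Library totals ran from 14658319 to 20413839 counts, and no 2 libraries of a group agreed within sampling noise. Whether each library was a separate culture is not stated, and every p-value below therefore rests on the spread between libraries, which may be technical. On the first principal component of the residuals of the 23 glucose libraries, which held 29.6% of their variance, the libraries numbered 1 to 3 separated from those numbered 4 to 6. What the numbers stand for is not given in the sources used here. WT cells in high glucose had no library 6, so there the set numbered 4 to 6 holds only libraries 4 and 5. All 7 general epithelial markers were high, with EPCAM between 172 and 285 FPKM (fragments scaled to gene length and sequencing depth). The markers of airway secretory cells were at or near 0, with MUC5AC at 0 reads. Summed markers of fibroblasts (7 genes, mostly COL1A1) reached at most 4.50 FPKM and those of endothelium (4 genes, mostly CDH5 and KDR) 10.0 FPKM. Those of leukocytes (4 genes, mostly CD14) reached at most 0.957 FPKM. Their ranges by group stand with the comparisons below.

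Promoter sequence was available in RefSeq (GRCh38.p14) for 9 of the 10 genes. In the 250 bases before each annotated start, 2 elements were searched on both strands: the FOXO element GTAAACA, found in 2.98% of all 35116 promoters of that length, and the hypoxia response core ACGTG or GCGTG, found in 43.2%. The FOXO element was found in 1 of the 9 genes, IGFBP6, and the hypoxia response core in 4 of the 9, IGFBP2, IGFBP3, IGF1R and IRS1. The promoter of IGFBP3 is shown because that gene changed most in the data. Those of IRS1 and IRS2 are shown because both genes fell in high glucose. A stretch of IGFBP6 is shown because it holds the only match to GTAAACA. Capitals mark the matches. The first line is chr7:45921283-45921522, minus strand, the second chr2:226799831-226800070, minus strand, and the third chr13:109786594-109786833, minus strand, each covering 250 to 11 bases before the RefSeq start. The IGFBP6 stretch, chr12:53097471-53097497, plus strand, begins 196 bases before the RefSeq start and lies in the first exon of longer GENCODE release 29 transcripts.
IGFBP3: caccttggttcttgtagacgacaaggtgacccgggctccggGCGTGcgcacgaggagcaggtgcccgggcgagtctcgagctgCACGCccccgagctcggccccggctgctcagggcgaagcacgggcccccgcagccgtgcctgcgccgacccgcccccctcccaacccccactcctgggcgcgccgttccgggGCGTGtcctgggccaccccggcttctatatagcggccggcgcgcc
IRS1: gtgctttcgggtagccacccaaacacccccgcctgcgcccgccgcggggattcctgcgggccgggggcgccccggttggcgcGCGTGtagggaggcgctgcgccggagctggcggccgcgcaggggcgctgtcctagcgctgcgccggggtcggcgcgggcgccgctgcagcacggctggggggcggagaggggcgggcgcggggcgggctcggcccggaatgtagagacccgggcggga
IRS2: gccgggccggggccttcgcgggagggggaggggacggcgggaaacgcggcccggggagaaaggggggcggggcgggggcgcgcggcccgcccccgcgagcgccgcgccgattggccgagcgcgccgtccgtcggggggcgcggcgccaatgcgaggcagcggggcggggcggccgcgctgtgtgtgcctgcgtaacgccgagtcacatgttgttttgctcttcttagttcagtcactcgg
IGFBP6: aatttgggaaGTAAACAgaaactggaa
The IGFBP3 promoter held 3 hypoxia response cores, starting 209, 167 and 55 bases before the start. That of IRS1 held 1, at 168 bases. The IGF1R promoter, not shown, held more, with 5 cores starting 243, 236, 166, 146 and 42 bases before the start. The share of 43.2% counts promoters with at least 1 match, and the number of matches was not compared with other promoters. The IGFBP3 window lies inside the annotated gene, as its RefSeq start is 602 bases downstream of the deposited gene start. The IGFBP2 match was found before only 1 of its RefSeq starts, 592 bases downstream of the deposited gene start. The IRS2 window held neither of these exact strings, and other forms of the sites were not searched. A match is a description of the letters and no evidence of binding.

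The ligands of the pathway were hardly present in these cells. IGF1, INS and the second annotated IGF2 gene had 0 reads in all 26 libraries, IGF2 had 0 to 7 reads, and IGFBP1, a hepatic binding protein that insulin represses, had 0 or 1 read. IGF2R, which takes IGF-2 up for degradation, was present at 13.5 to 23.9 FPKM. INSR was the lower of the receptors IGF1R and INSR: IGF1R lay between 6.69 and 10.7 FPKM over all 26 libraries and INSR between 1.49 and 3.24 FPKM.

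IGFBP3, the main carrier of IGFs in the circulation, was by far the most abundant of the 10 genes. Its mean was 1956 ± 118 FPKM in WT cells in normal glucose (SD, n = 6), 1775 ± 218 in WT cells in high glucose (n = 5), 1948 ± 80.9 in CF cells in normal glucose (n = 6) and 1769 ± 134 in CF cells in high glucose (n = 6). By mean FPKM it ranked 4 or 5 among 19951 protein-coding genes in those groups. In WT cells that were not polarized the mean was 84.1 ± 1.17 FPKM (n = 3), at rank 382.

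Below IGFBP3, the order on the FPKM scale was as follows. IGFBP4 came second in every group, with means from 44.6 FPKM in cells that were not polarized to 87.4 FPKM in CF cells in high glucose, and its range overlapped with no neighbour in that order. IGFBP7, IRS2 and IGFBP6 took positions 3 to 5. Neighbours in that order overlapped in part: IGFBP7 with IRS2 in both lines in normal glucose, IGFBP7 with IGFBP6 in WT cells in high glucose, and IRS2 with IGFBP6 in every group except CF cells in normal glucose. IGF1R was always in position 6, IRS1 and INSR took positions 7 and 8, IGFBP2 was in position 9 and IGFBP5 in position 10. INSR was above IRS1 on average in CF cells and below it in WT cells, and their ranges overlapped in both CF groups and in WT cells in high glucose. IGFBP5 was at the edge of detection with 2 to 19 reads per library, so differences between its groups were hardly measurable at this depth.

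**Figure D1:**
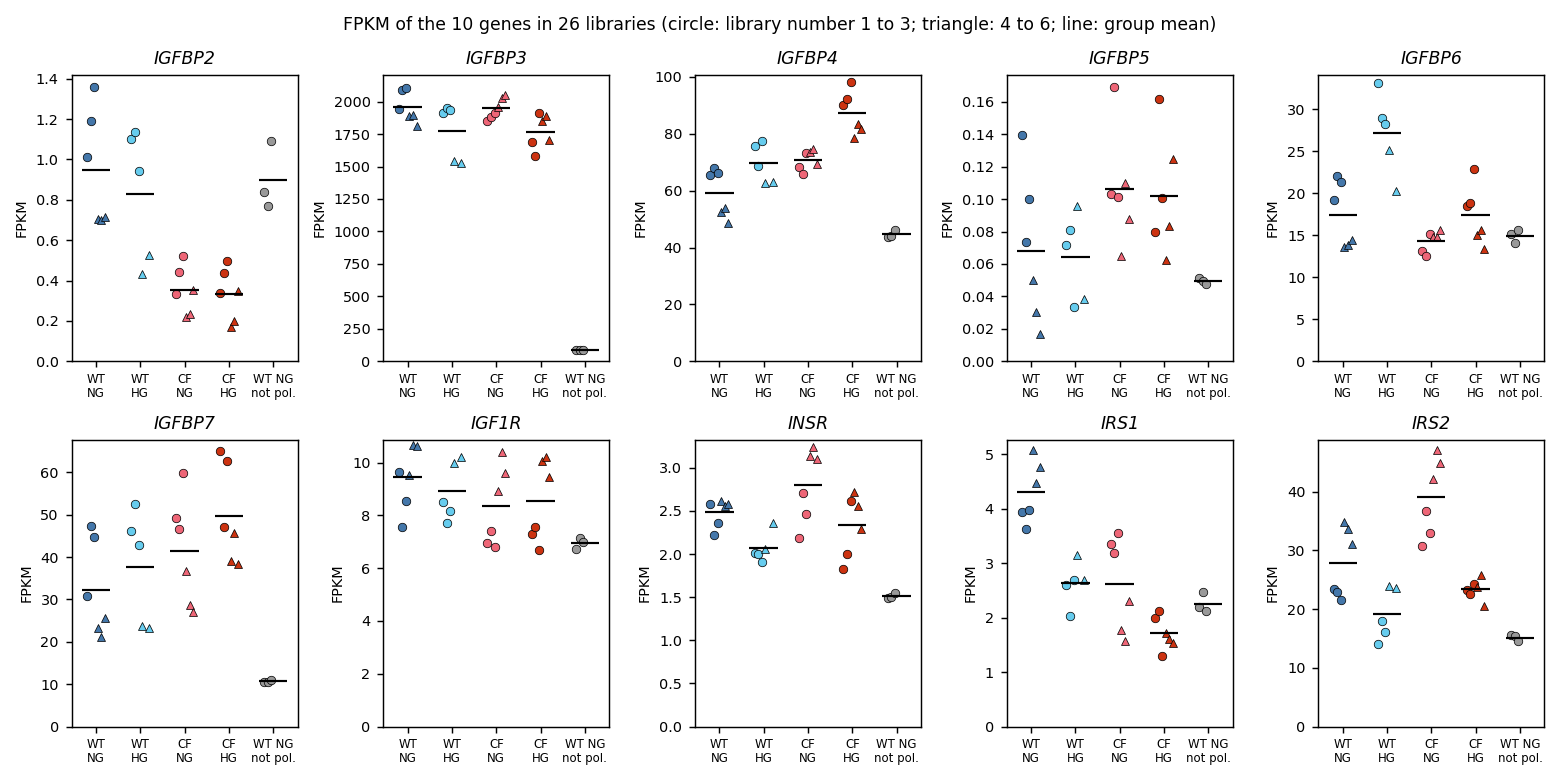
FPKM (y axis, linear, from 0) of each gene in each of 26 libraries by group (x axis: NG normal glucose, HG high glucose, not pol. not polarized); circles are libraries numbered 1 to 3, triangles those numbered 4 to 6, and the line is the group mean. IGFBP3 lies between 1530 and 2108 FPKM in polarized cells and at 84.1 FPKM on average in cells that were not polarized, and IRS1 and IRS2 lie lower in high glucose in both lines.

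Polarized and not polarized WT cells were compared in normal glucose. Days in culture and use of Transwells are not known for the latter, so they cannot be told apart from polarization. IGFBP3 was 23.5-fold higher in polarized cells, the largest difference among the 9 genes tested, and IGFBP7, IRS1, IRS2, INSR, IGF1R and IGFBP4 were higher as well. Of 9 genes tested, 7 were higher and 0 lower at an adjusted p under 0.05 (edgeR), where 26% of the 16105 genes tested were higher and 24% lower. With DESeq2 and with limma 7 were called as well, and 0 members were lower at an unadjusted p under 0.05. The median log2 fold change was 0.73 over the 9 genes and 0.02 over all genes tested. IGFBP5 had too few reads in these libraries to be tested. Markers of cell types moved along with these groups. The summed FPKM of 4 airway basal markers (mostly KRT5) was 6.30 to 7.30 in cells that were not polarized and 9.92 to 14.0 in polarized cells. That of 4 ciliated markers (only PIFO with a median over 1 FPKM) was 1.31 to 1.85 against 2.54 to 2.99. That of fibroblast markers was 1.41 to 1.56 against 2.78 to 4.50, and that of endothelial markers 6.83 to 7.49 against 3.15 to 4.0. Their part in the results was not tested.

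IGFBP3 was at 85.3, 83.9 and 83.0 FPKM in the 3 libraries that were not polarized, and ran from 1812 through a median of 1921 to 2108 FPKM in the 6 polarized ones. The groups lay far apart. In counts, its transcripts took 0.0400% to 0.0412% of a library in cells that were not polarized and 0.863% to 0.971% in polarized cells. The log2 fold change was 4.56 ± 0.09 (SE), with an adjusted p of 3.4e-13. In bulk RNA, fewer cells that express a gene and less RNA per cell cannot be told apart, here and in every comparison below.

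IGFBP7, a secreted protein of the extracellular matrix, had 10.5, 10.5 and 11.1 FPKM in the libraries that were not polarized. In polarized libraries it ran from 21.2 through 28.2 to 47.3 FPKM, without overlap, a log2 fold change of 1.60 ± 0.25 (adjusted p = 0.00015). The gene lies across POLR2B on the opposite strand, which had 2079 to 3280 counts against 350 to 2043 for IGFBP7. The strand setting of the counting is not given in the sources used here, and reads of this pair may be mixed.

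Both adaptors were higher in polarized cells, IRS1 1.93-fold and IRS2 1.86-fold. IRS1 had 2.20, 2.47 and 2.11 FPKM in cells that were not polarized and ran from 3.63 through 4.22 to 5.08 in polarized cells, a log2 fold change of 0.95 ± 0.11 (adjusted p = 8.3e-06). IRS2 had 15.6, 15.4 and 14.5 FPKM against 21.5, 27.3 and 34.8 at the lowest, median and highest, a log2 fold change of 0.90 ± 0.15 (adjusted p = 0.00027). No library of either gene overlapped with the other group.

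The receptors were higher by smaller amounts. INSR, the insulin receptor, had 1.49, 1.5 and 1.54 FPKM in cells that were not polarized and 2.22 to 2.62 FPKM in polarized cells, a log2 fold change of 0.73 ± 0.08 (adjusted p = 6.5e-06). IGF1R, the main IGF receptor, had 6.72, 7.13 and 6.98 FPKM against 7.58 to 10.7 FPKM, a log2 fold change of 0.46 ± 0.10 (adjusted p = 0.0014). IGFBP4, a binding protein that PAPPA cleaves, had 43.7, 44.1 and 46.1 FPKM against 48.5 to 67.9 FPKM, a log2 fold change of 0.42 ± 0.11 (adjusted p = 0.0046). The ranges did not overlap for any of these genes, although for IGF1R and IGFBP4 the gap was narrow.

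IGFBP6, which prefers IGF-2, and IGFBP2 overlapped between the groups and were not called (log2 fold changes 0.23 ± 0.16 and 0.09 ± 0.23, adjusted p = 0.25 and 0.78). The not polarized libraries are numbered 1 to 3 under titles of their own (Standard), so a shared number need not mark a shared set. Against the polarized libraries with those numbers alone, the log2 fold changes were 1.95 for IGFBP7, 0.58 for IRS2, 0.77 for IRS1, 0.67 for INSR, 0.31 for IGF1R and 0.58 for IGFBP4, all still called, and that of IGFBP6 was 0.49 with an adjusted p of 0.00012.

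Whether raised glucose changes the pathway was asked in each line. In both lines the adaptors IRS1 and IRS2 fell in high glucose, while the receptors IGF1R and INSR were not called. IGFBP6 was called higher in WT cells, and IGFBP4 in CF cells. With a term for the sets of library numbers (1 to 3 against 4 to 6), INSR was called lower and IGFBP4 higher in both lines. In WT cells without that term, 1 of the 10 genes was higher and 2 lower, where 1.49% of the 16338 genes tested were higher and 1.47% lower. Without WT high glucose library 1, 2 or 3 or WT normal glucose library 4 or 6 only IGFBP6 was called there. In CF cells, 1 was higher and 2 lower (1 called without CF high glucose library 3), where 4.27% of all genes tested were higher and 4.14% lower. The median log2 fold change of the 10 genes was -0.11 in WT cells and -0.07 in CF cells, against 0.00051 and -3.6e-05 over all genes tested.

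IRS1 fell by 0.71 ± 0.18 (SE) on the log2 scale in WT cells. It ran from 3.63 through 4.22 to 5.08 FPKM in normal glucose and had 2.61, 2.03, 2.70, 3.15 and 2.70 FPKM in high glucose (adjusted p = 0.029). The groups did not overlap. Leaving out WT high glucose library 1, 2 or 3 or WT normal glucose library 4 or 6 moved the adjusted p to between 0.058 and 0.065, and the log2 fold change was between -0.71 and -0.62 in those 5 fits. It was also not called with the replicate block, which fits the library number as a factor (adjusted p = 0.055), without the low-count filter (adjusted p = 0.11) or with limma on unfiltered log2 FPKM plus 1 (adjusted p = 0.053).

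In CF cells IRS1 fell by 0.62 ± 0.18, from 1.57, 2.75 and 3.56 FPKM at the lowest, median and highest in normal glucose to 1.29, 1.66 and 2.12 FPKM in high glucose (adjusted p = 0.028). The groups overlapped. The CF libraries in normal glucose fell into separate levels, 3.19 to 3.56 FPKM for numbers 1 to 3 and 1.57 to 2.31 FPKM for numbers 4 to 6. Within numbers 1 to 3 the log2 fold change was -0.90 (adjusted p = 0.00073) and within numbers 4 to 6 it was -0.22 (adjusted p = 0.21). In WT cells the values within both sets were -0.65 (adjusted p = 0.016) and -0.70 (adjusted p = 7.7e-05). The call in CF cells was lost without CF high glucose library 3 or 6 or CF normal glucose library 1 or 2, with adjusted p between 0.051 and 0.069. It was also lost with the replicate block (adjusted p = 0.065), without the low-count filter (adjusted p = 0.11) and with the CF groups fitted alone (adjusted p = 0.078). With limma it was lost on log2 FPKM plus 1 (adjusted p = 0.060, and 0.12 unfiltered) and plus 0.1 (adjusted p = 0.055).

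IRS2 was more abundant than IRS1 on the FPKM scale in every group and fell in both lines. In CF cells it ran from 30.8 through 39.4 to 47.2 FPKM in normal glucose and from 20.5 through 23.5 to 25.8 FPKM in high glucose. The groups did not overlap, and the log2 fold change was -0.74 ± 0.14 (adjusted p = 0.0013). Within numbers 1 to 3 it was -0.51 (adjusted p = 0.00014) and within numbers 4 to 6 it was -0.94 (adjusted p = 2.7e-12).

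In WT cells IRS2 ran from 21.5 through 27.3 to 34.8 FPKM in normal glucose and had 14.1, 18.0, 16.1, 24.0 and 23.5 FPKM in high glucose, a log2 fold change of -0.54 ± 0.15 (adjusted p = 0.044). The pooled groups overlapped, with high glucose libraries 4 and 5 above normal glucose libraries 1 to 3. Within numbers 1 to 3 the log2 fold change was -0.49 (adjusted p = 0.00059) and within numbers 4 to 6 it was -0.47 (adjusted p = 0.00011), and neither set overlapped between glucose levels. In the pooled fit the call was lost without WT high glucose library 1, 2 or 3 or WT normal glucose library 4, 5 or 6, with adjusted p between 0.081 and 0.14. It was also lost without the low-count filter (adjusted p = 0.15) and with the WT groups fitted alone (adjusted p = 0.11). With limma it was lost on log2 FPKM plus 1 (adjusted p = 0.053, and 0.11 unfiltered) and plus 0.1 (adjusted p = 0.052).

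IGFBP6 rose 1.56-fold in WT cells. It ran from 13.6 through 16.8 to 22.1 FPKM in normal glucose and had 33.1, 29.0, 28.2, 25.1 and 20.3 FPKM in high glucose, a log2 fold change of 0.64 ± 0.14 (adjusted p = 0.013). The highest 4 libraries in high glucose lay above all libraries in normal glucose, and the remaining one, number 5, lay within their range. The log2 fold change within numbers 1 to 3 was 0.53 (adjusted p = 0.0024) and within numbers 4 to 6 it was 0.71 (adjusted p = 9.4e-06).

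In CF cells IGFBP6 ran from 12.6 through 14.8 to 15.6 FPKM in normal glucose and from 13.4 through 17.1 to 22.8 FPKM in high glucose, a log2 fold change of 0.28 ± 0.14 that was not called (adjusted p = 0.26). The sets of library numbers differed here. Within numbers 1 to 3 the log2 fold change was 0.56 (adjusted p = 0.0011), and within numbers 4 to 6 it was -0.05 (adjusted p = 0.83).

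IGFBP4 rose 1.24-fold in CF cells, from 65.7, 71.3 and 74.5 FPKM in normal glucose to 78.6, 86.9 and 98.1 FPKM in high glucose, without overlap (log2 fold change 0.31 ± 0.08, adjusted p = 0.017). In numbers 1 to 3 alone the log2 fold change was 0.44 (adjusted p = 9.7e-05) and within numbers 4 to 6 it was 0.16 (adjusted p = 0.061). Without CF high glucose library 3 the adjusted p was 0.0502. In WT cells the log2 fold change of IGFBP4 was 0.24 ± 0.08 and was not called (adjusted p = 0.14), and within numbers 4 to 6 it was 0.30 (adjusted p = 0.0031).

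The other members were not called in either line. INSR had log2 fold changes of -0.26 ± 0.10 in WT cells (adjusted p = 0.19) and -0.26 ± 0.10 in CF cells (adjusted p = 0.10), nearly the same value in both, and among numbers 4 to 6 it was called in CF cells (-0.33, adjusted p = 0.0062). IGFBP3 had -0.14 ± 0.07 in each line (adjusted p = 0.36 in WT and 0.26 in CF), and among numbers 4 to 6 it was called in WT cells (-0.27, adjusted p = 0.0068). IGFBP7 had 0.22 ± 0.26 and 0.27 ± 0.25, IGF1R had -0.08 ± 0.12 and 0.04 ± 0.12, and IGFBP2 had -0.20 ± 0.27 and -0.09 ± 0.31. Among numbers 4 to 6 IGFBP7 was called in CF cells (0.41, adjusted p = 0.0064). For IGFBP5, at -0.06 ± 0.42 and -0.05 ± 0.36, a change was not detectable at this depth.

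The difference of the response between the lines was tested directly, as CF minus WT. Of the 10 genes 0 were higher and 0 lower by edgeR, where 0.0122% of all genes tested were higher and 0.0245% lower. None of the 10 had an unadjusted p under 0.05, and DESeq2 and limma called 0. The largest differences relative to their errors were those of IGFBP6, -0.36 ± 0.20 (range of 2 SE to either side -0.76 to 0.04), and IRS2, -0.20 ± 0.20 (-0.60 to 0.21). For IRS1 the difference was 0.09 ± 0.25 (-0.41 to 0.59) and for IGFBP4 it was 0.07 ± 0.12 (-0.16 to 0.31). Among libraries numbered 4 to 6 alone the difference was called for IGFBP6, -0.76 (adjusted p = 0.00079), and IRS2, -0.47 (adjusted p = 0.0040). That set holds only libraries 4 and 5 of WT cells in high glucose. Among libraries numbered 1 to 3 the difference was 0.03 for IGFBP6 and -0.02 for IRS2 (adjusted p = 0.97 for both).

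**Figure D2:**
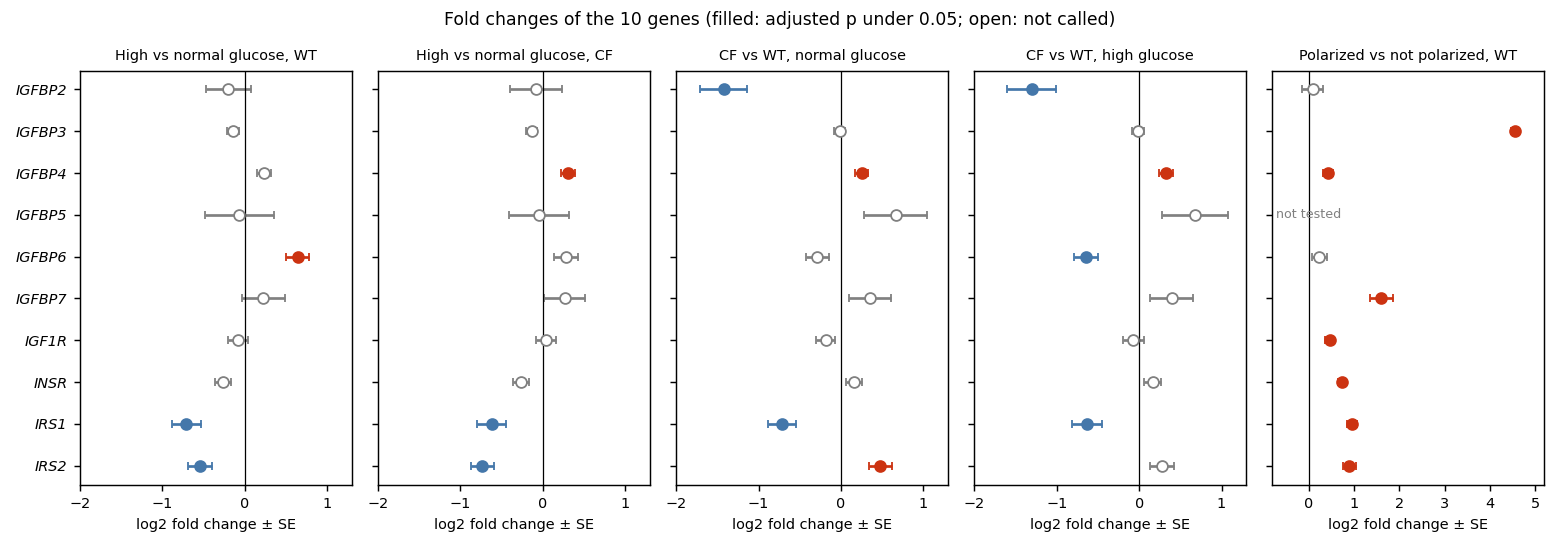
Log2 fold change (x axis) ± SE of each gene (y axis) in 5 comparisons from edgeR, with filled points for an adjusted p under 0.05 (red higher, blue lower) and open points for genes not called; the last panel has a wider axis. IRS1 and IRS2 are lower in high glucose in both lines, IGFBP2 is lower in CF cells at both glucose levels, and IGFBP3 stands at 4.56 in polarized against not polarized cells.

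The lines were then compared at each glucose level. IGFBP2, a binding protein often raised in fasting and in tumours, was 2.68-fold lower in CF cells in normal glucose and 2.47-fold lower in high glucose. IRS1 was also lower in CF cells at both levels, IGFBP4 was higher at both, IRS2 was higher in normal glucose, and IGFBP6 was lower in high glucose. In normal glucose 2 of the 10 genes were higher and 2 lower, where 11.4% of all genes tested were higher and 13% lower. In high glucose 1 was higher and 3 were lower, where 9.35% were higher and 10.6% lower. The median log2 fold change of the 10 genes was 0.07 in normal and 0.08 in high glucose, against 0.0040 and 0.0074 over all genes tested. Markers of other cell types differed between the lines too. Summed endothelial markers were at 5.11 to 10.0 FPKM in CF cells against 3.15 to 4.0 FPKM in WT cells in normal glucose, and at 6.83 to 7.79 against 3.46 to 4.63 FPKM in high glucose. Summed fibroblast markers were at 1.70 to 2.71 against 2.78 to 4.50 FPKM and at 2.04 to 3.22 against 2.83 to 4.32 FPKM. Basal markers (mostly KRT5) were at 12.3 to 24.3 against 9.92 to 14.0 FPKM and at 14.8 to 25.4 against 10.3 to 12.8 FPKM. Leukocyte markers in high glucose (mostly CD14, with 6 to 34 reads per library over all groups) were at 0.612 to 0.910 against 0.336 to 0.594 FPKM. Their part in the results was not tested.

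IGFBP2 was a low gene, with 14 to 121 reads per library. In normal glucose it ran from 0.701 through 0.862 to 1.36 FPKM in WT cells and from 0.218 through 0.345 to 0.524 FPKM in CF cells, without overlap, a log2 fold change of -1.42 ± 0.28 (adjusted p = 0.00041). In high glucose it had 1.10, 1.14, 0.942, 0.431 and 0.529 FPKM in WT cells against 0.169, 0.343 and 0.496 FPKM in CF cells, and here 1 WT library, number 4, lay within the CF range (log2 fold change -1.31 ± 0.30, adjusted p = 0.0019). Within the sets of numbers the log2 fold changes were -1.46 and -1.40 in normal glucose and -1.32 and -1.01 in high glucose, all called.

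IRS1 was lower in CF cells by 0.72 ± 0.17 on the log2 scale in normal glucose (adjusted p = 0.0024), with 1.57 to 3.56 FPKM in CF cells and 3.63 to 5.08 FPKM in WT cells. The groups did not overlap, although the highest CF library lay close to the lowest WT library. Within numbers 1 to 3 the log2 fold change was -0.20 (adjusted p = 0.33), and within numbers 4 to 6 it was -1.35 (adjusted p = 8.0e-13). In high glucose it was -0.63 ± 0.18 (adjusted p = 0.014, but 0.060 without the low-count filter and 0.055 with limma on unfiltered log2 FPKM plus 1) with overlap between the groups, and -0.45 (adjusted p = 0.035) and -0.87 (adjusted p = 2.5e-07) within the sets.

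IRS2 differed in the other direction. In normal glucose the 6 CF libraries had 30.8 to 47.2 FPKM and the 6 WT libraries 21.5 to 34.8 FPKM, a log2 fold change of 0.48 ± 0.14 (adjusted p = 0.013). The pooled groups overlapped, and within the sets of numbers, where they did not, the log2 fold changes were 0.56 (adjusted p = 4.2e-06) and 0.43 (adjusted p = 3.1e-06). In high glucose the value was 0.28 ± 0.15 and not called (adjusted p = 0.21), with 0.53 (adjusted p = 1.0e-05) among numbers 1 to 3 and -0.05 (adjusted p = 0.69) among numbers 4 to 6. Over all libraries IRS2 was called higher there with the replicate block and with the term for the sets.

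IGFBP4 was higher in CF cells, by a log2 fold change of 0.25 ± 0.08 in normal glucose (adjusted p = 0.023) and 0.32 ± 0.09 in high glucose (adjusted p = 0.0069). In high glucose the CF libraries, at 78.6 to 98.1 FPKM, all lay above the WT libraries, at 62.7 to 77.6 FPKM. In normal glucose the groups overlapped, and the log2 fold change was 0.04 (adjusted p = 0.68) within numbers 1 to 3 and 0.49 (adjusted p = 8.6e-09) within numbers 4 to 6. There the call was also lost without WT library 4 or 6, with adjusted p = 0.053 and 0.058.

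IGFBP6 in high glucose was 1.57-fold lower in CF cells, at 13.4 to 22.8 FPKM against 20.3 to 33.1 FPKM in WT cells (log2 fold change -0.65 ± 0.14, adjusted p = 0.0015). The pooled groups overlapped, and the values within the sets were -0.60 and -0.65, both called. In normal glucose it was -0.29 ± 0.14 and not called (adjusted p = 0.15), with -0.63 (adjusted p = 4.6e-05) among numbers 1 to 3 and 0.10 (adjusted p = 0.47) among numbers 4 to 6. Over all libraries IGFBP6 was called lower there with the term for the sets.

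IGFBP3, IGFBP5, IGFBP7, IGF1R and INSR were not called between the lines at either glucose level in the main fit. With the replicate block or with the term for the sets, over all libraries, IGFBP7 was called higher in CF cells at both levels. IGF1R was called lower in normal glucose under the same alternatives. For IGFBP3 the log2 fold change was -0.02 ± 0.07 in normal and -0.01 ± 0.07 in high glucose, with ranges of 2 SE from -0.15 to 0.12 and from -0.16 to 0.13. Among numbers 4 to 6 in high glucose it was higher in CF cells (0.22, adjusted p = 0.0077). IGFBP7 was at 0.35 ± 0.25 and 0.40 ± 0.26, and within numbers 4 to 6 it was called at both levels (0.39, adjusted p = 0.0050, and 0.78, adjusted p = 1.5e-05). INSR was at 0.16 ± 0.10 and 0.17 ± 0.10, and in normal glucose it was called among numbers 4 to 6 (0.29, adjusted p = 0.0081). IGF1R was at -0.19 ± 0.12 and -0.07 ± 0.12, and in normal glucose it was called among numbers 1 to 3 (-0.29, adjusted p = 0.0079). IGFBP5 was at 0.67 ± 0.38 and 0.68 ± 0.40, not called at either level.

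Genes within 1 Mb of the members on the chromosome were examined for the difference between the lines, where 11.4% of all genes were higher and 13% lower in normal glucose and 9.35% and 10.6% in high glucose. Around IGFBP2, 12 tested neighbours had a median log2 fold change of 0.03 in normal glucose, with 2 higher and 1 lower, and 0.19 in high glucose, with 2 higher and 2 lower. Around IRS1 the medians of 6 neighbours were -0.04, with 1 lower, and -0.0081, with 0 called. Around IRS2, 9 neighbours had medians of -0.22 and -0.20, with 5 lower in normal and 2 lower in high glucose and 0 higher. Around IGFBP4, 34 neighbours had medians of -0.03 and 0.13, with 3 higher and 5 lower, then 7 higher and 3 lower. Around IGFBP6, 47 neighbours had medians of -0.08 and 0.0011, with 3 higher and 10 lower, then 3 higher and 5 lower. The windows around the members not called between the lines were examined as well and are not reported here.

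**Figure D3:**
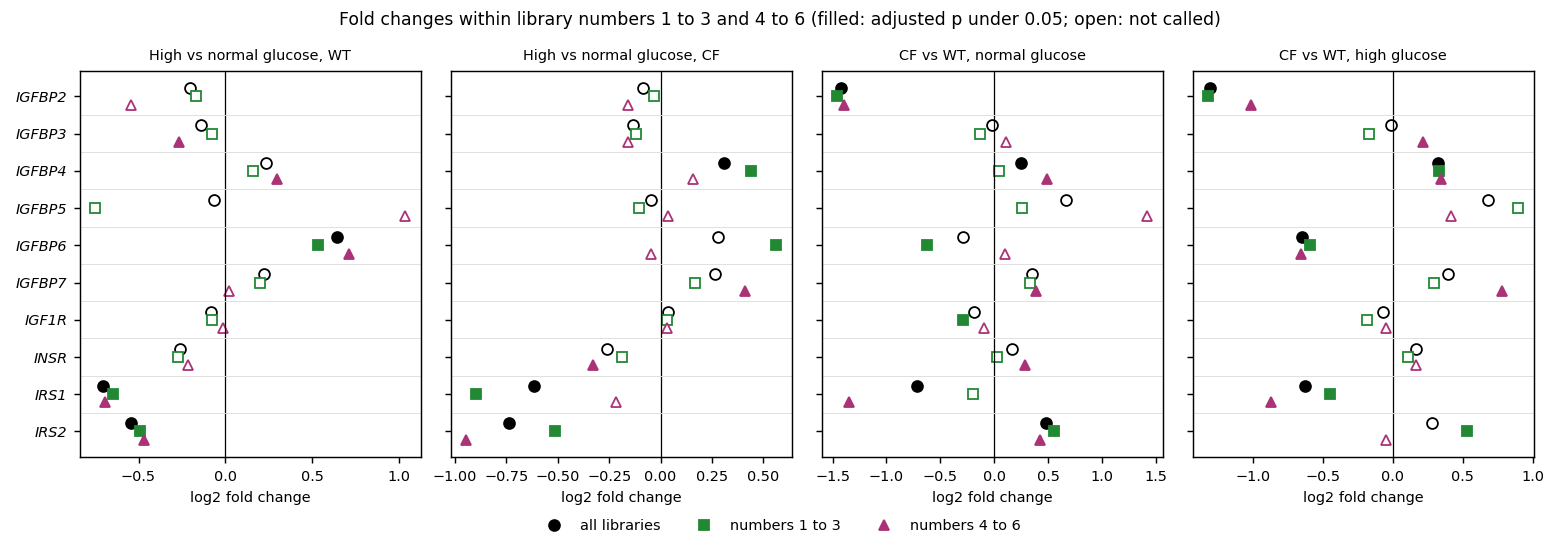
Log2 fold change (x axis) of each gene (y axis) in 4 comparisons with all libraries (black circles), with libraries numbered 1 to 3 alone (green squares) and with those numbered 4 to 6 alone (purple triangles); filled symbols have an adjusted p under 0.05. IGFBP2 between the lines and IRS2 with glucose hold their direction in both sets, and IGFBP6 in CF cells with glucose stands at 0.56 in the first set and -0.05 in the second.

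Because the sets of library numbers moved with several of these results, their own difference was fitted over the 23 glucose libraries with group means held apart. Libraries numbered 4 to 6 were higher than those numbered 1 to 3 for IGF1R (0.37 ± 0.04 on the log2 scale), IRS2 (0.37 ± 0.07) and INSR (0.21 ± 0.05), and lower for IGFBP2 (-0.86 ± 0.12), IGFBP7 (-0.76 ± 0.09), IGFBP6 (-0.34 ± 0.07) and IGFBP4 (-0.19 ± 0.04). Thus 3 of the 10 genes were higher and 4 lower, where 24.3% of all genes tested were higher and 25.3% lower. IGFBP3, IGFBP5 and IRS1 were not called (adjusted p = 0.16, 0.054 and 0.53). For IGFBP2, IGFBP7, IGF1R and IGFBP5 (-0.59, not called) this difference was larger in size than that of glucose in either line, and its part in the results above beyond the values given within each set was not tested.

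The other genes of the pathway were counted in 6 lists. With high glucose, 2 of 80 tested list genes were higher and 5 lower in WT cells, where 1.49% and 1.47% of all genes were. In CF cells 3 were higher and 8 lower, where 4.27% and 4.14% of all genes were. Among 20 adaptors and receptor regulators, 2 were lower in each line. SH2B2, an adaptor that binds the activated insulin receptor, fell in both, by 0.60 ± 0.10 in WT cells (adjusted p = 0.00070) and by 0.64 ± 0.09 in CF cells (adjusted p = 4.4e-05). The other was SOCS1, an inhibitor of IRS signalling, in WT cells (-0.48 ± 0.12) and the phosphatase PTPN2 in CF cells (-0.20 ± 0.06). The median of this list was 0.02 in WT cells and -0.04 in CF cells.

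Of the 32 tested PI3K, AKT and mTOR genes, 0 were called with glucose in WT cells by edgeR (4 at an unadjusted p under 0.05), and in CF cells 2 were lower, among them RICTOR (-0.38 ± 0.09), and 0 higher. The medians were -0.05 and -0.04. Of 16 tested FOXO factors and targets, SOD2 (0.54 ± 0.08), a mitochondrial superoxide dismutase, and GADD45A (0.28 ± 0.07), a DNA damage response gene, were higher in WT cells, and FOXO6 (-0.47 ± 0.13), CITED2 (-0.46 ± 0.09) and CCNG2 (-0.40 ± 0.07) were lower. In CF cells catalase, CAT (0.49 ± 0.11), and SESN2 (0.36 ± 0.10) were higher and CCNG2 (-0.57 ± 0.07), a cyclin that restrains proliferation, was lower. The medians of this list were -0.08 and 0.03.

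Of 7 tested proteases, inhibitors and processing enzymes, 0 were called with glucose in WT cells by edgeR (3 at an unadjusted p under 0.05, median -0.12). In CF cells FURIN (0.22 ± 0.05), which cleaves the insulin receptor and IGF precursors, was higher, and STC2 (-0.61 ± 0.12), STC1 (-0.35 ± 0.09) and ADAM12 (-0.49 ± 0.11) were lower (median -0.35). STC1 and STC2 are inhibitors of PAPPA, and ADAM12 is a protease known to cleave IGFBP3. The 2 tested genes of the list of ligands, other binding proteins and the clearance receptor were not called with glucose in either line. By edgeR, 0 in WT cells and 2 in CF cells had an unadjusted p under 0.05. IGF2R was at -0.12 ± 0.15 in WT cells and -0.31 ± 0.14 in CF cells, beside list medians of 0.10 and 0.26. A median of 2 values lies midway between them, so the other gene was above 0 in both lines, opposite in sign to IGF2R. In CF cells IGF2R was called with the replicate block, with a term for the sets of numbers and in numbers 4 to 6 alone, where the adjusted p was 3.9e-07 and the difference of the response was called too (adjusted p = 0.0017). The 3 IGF2 mRNA binding proteins were not called either (0 at an unadjusted p under 0.05, medians -0.04 and -0.05). Of the 7 list genes called in WT cells, CCNG2, CITED2, SH2B2 and SOD2 were called in the same direction within both sets of library numbers, and of the 11 in CF cells ADAM12, CCNG2, FURIN, SESN2, SH2B2, STC1 and STC2 were. In WT cells the call of FOXO6 was lost in 13 of 23 alternatives, 10 of them with a single library left out, that of SOCS1 in 6 and that of GADD45A in 5. In CF cells that of PTPN2 was lost in 8 of 24, SESN2 in 5, CAT in 2, and RICTOR and STC1 in 1 each. For the difference of the response, 0 of 80 list genes were called by edgeR, and 8 had an unadjusted p under 0.05.

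Named genes of the lists were compared between the lines in the same way. There, 17 of 80 list genes were higher and 11 lower in CF cells in normal glucose, beside 11.4% and 13% of all genes. In high glucose 12 were higher and 6 lower, beside 9.35% and 10.6% of all genes. ADAM12 differed most, at 1.40 ± 0.11 in normal and 1.25 ± 0.12 in high glucose, while IDE, the insulin-degrading enzyme, was lower at both (-0.33 ± 0.09 and -0.30 ± 0.09). STC2 was higher in normal glucose (0.33 ± 0.12). The list of proteases had 2 higher and 1 lower, then 1 and 1 (medians -0.0059 and -0.12). SOCS1 (0.57 ± 0.11 and 0.85 ± 0.12) and ENPP1 (0.44 ± 0.08 and 0.46 ± 0.08), an inhibitor of the insulin receptor, were higher, and PTPN2 was lower (-0.26 ± 0.06 and -0.44 ± 0.06). The adaptors and receptor regulators had 5 higher and 1 lower in normal glucose and 4 higher and 1 lower in high glucose (medians 0.05 and 0.05).

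Further along the pathway, RHEB, the GTPase that activates mTOR, was higher in CF cells (0.61 ± 0.11 and 0.54 ± 0.12), and EIF4EBP1, a repressor of translation that mTOR inactivates, was lower (-0.81 ± 0.10 and -0.67 ± 0.10). TBC1D4 (0.56 ± 0.15) and RICTOR (0.31 ± 0.09) were higher in normal glucose and RPS6KB2 (0.40 ± 0.11) and AKT1S1 (0.19 ± 0.07) in high glucose. PIK3CD was lower at both (-0.35 ± 0.11 and -0.35 ± 0.12) and INPPL1 in normal glucose (-0.31 ± 0.10). This list had 6 higher and 3 lower, then 3 higher and 2 lower (medians 0.0032 and -0.01).

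Among FOXO factors and targets 4 were higher and 6 lower in normal glucose, and 4 higher and 2 lower in high glucose (medians -0.14 and 0.0055). FBXO32, a ubiquitin ligase, was higher at both (0.78 ± 0.09 and 0.84 ± 0.10), as was ERBB3 (0.39 ± 0.06 and 0.47 ± 0.07), and GADD45A was lower at both (-0.61 ± 0.07 and -0.75 ± 0.07). CCNG2 was higher (0.40 ± 0.07) and CAT lower (-0.58 ± 0.11) in normal glucose, BCL2L11 was lower in high glucose (-0.30 ± 0.08), and FOXO6 was lower in normal glucose (-0.36 ± 0.12) and higher in high glucose (0.47 ± 0.13). Neither IGF2R nor the IGF2 mRNA binding proteins were called. IGF2R was at -0.08 ± 0.14 and -0.28 ± 0.15. In high glucose it was called under the same 3 alternatives, with an adjusted p of 1.3e-07 in numbers 4 to 6. The list medians were -0.29 and -0.13 for the ligand list and 0.05 and 0.05 for the IGF2 mRNA binding proteins (0 at an unadjusted p under 0.05 in both lists). Of the list genes taken by the naming rule, 12 of 19 in normal glucose and 11 of 16 in high glucose were called in the same direction within both sets of library numbers. In normal glucose the call was lost in 11 of 24 alternatives for STC2, 10 for FOXO6, whose adjusted p reached 0.62 in numbers 1 to 3, 8 for PIK3CD and 6 for INPPL1. IDE, PTPN2, RICTOR and SOCS1 lost theirs in numbers 1 to 3 alone. In high glucose the call was lost in 14 of 23 alternatives for AKT1S1, both sets of numbers among them, 10 for PIK3CD and 3 for IDE, and in numbers 1 to 3 alone for FOXO6 and BCL2L11.

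In polarized against not polarized cells, 17 of 79 list genes were higher and 34 lower, beside 26% and 24% of all genes. ADAM12 was 9.77-fold higher (log2 fold change 3.29 ± 0.17) and STC1 3.26-fold higher (1.71 ± 0.08), whereas STC2 (-1.13 ± 0.11), PAPPA (-1.09 ± 0.27) and IDE (-0.43 ± 0.08) were lower, giving 2 higher and 3 lower of 7 (median 0.08). Among adaptors and receptor regulators 6 were higher and 7 lower (median -0.05), with PTPRF (0.63 ± 0.07), ENPP1 (0.54 ± 0.09) and SH2B2 (0.53 ± 0.11) higher, and GRB10 (-1.45 ± 0.21), GRB14 (-0.74 ± 0.21) and RACK1 (-0.67 ± 0.05) lower. GRB10 and GRB14 bind and inhibit the insulin and IGF receptors.

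Of the PI3K, AKT and mTOR genes 5 were higher and 14 lower in polarized cells (median -0.14). Glycogen synthase, GYS1 (0.70 ± 0.07), the PI3-kinase subunit PIK3R1 (0.63 ± 0.13) and RICTOR (0.37 ± 0.08) were higher, and EIF4EBP1 (-1.23 ± 0.07), the AKT inhibitor TRIB3 (-1.04 ± 0.06) and INPP4B (-0.95 ± 0.08) were lower. Of the FOXO factors and targets 4 were higher and 7 lower (median -0.22), with CCNG2 (0.71 ± 0.07), SOD2 (0.56 ± 0.08) and SESN1 (0.55 ± 0.10) higher and GADD45A (-1.31 ± 0.06), SESN2 (-1.05 ± 0.07) and CITED2 (-0.78 ± 0.11) lower. All 3 IGF2 mRNA binding proteins were lower, IGF2BP2 (-0.30 ± 0.07), IGF2BP3 (-0.24 ± 0.07) and IGF2BP1 (-0.23 ± 0.09), with a list median of -0.24. IGF2R, the only tested gene of the ligand list, was at 0.17 ± 0.13 and not called. The call of IGF2BP1 was lost in 8 of 19 alternatives, among them leaving out any 1 library that was not polarized (adjusted p up to 0.12), and the other 25 list genes named here kept their calls in every alternative.

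**Figure D4:**
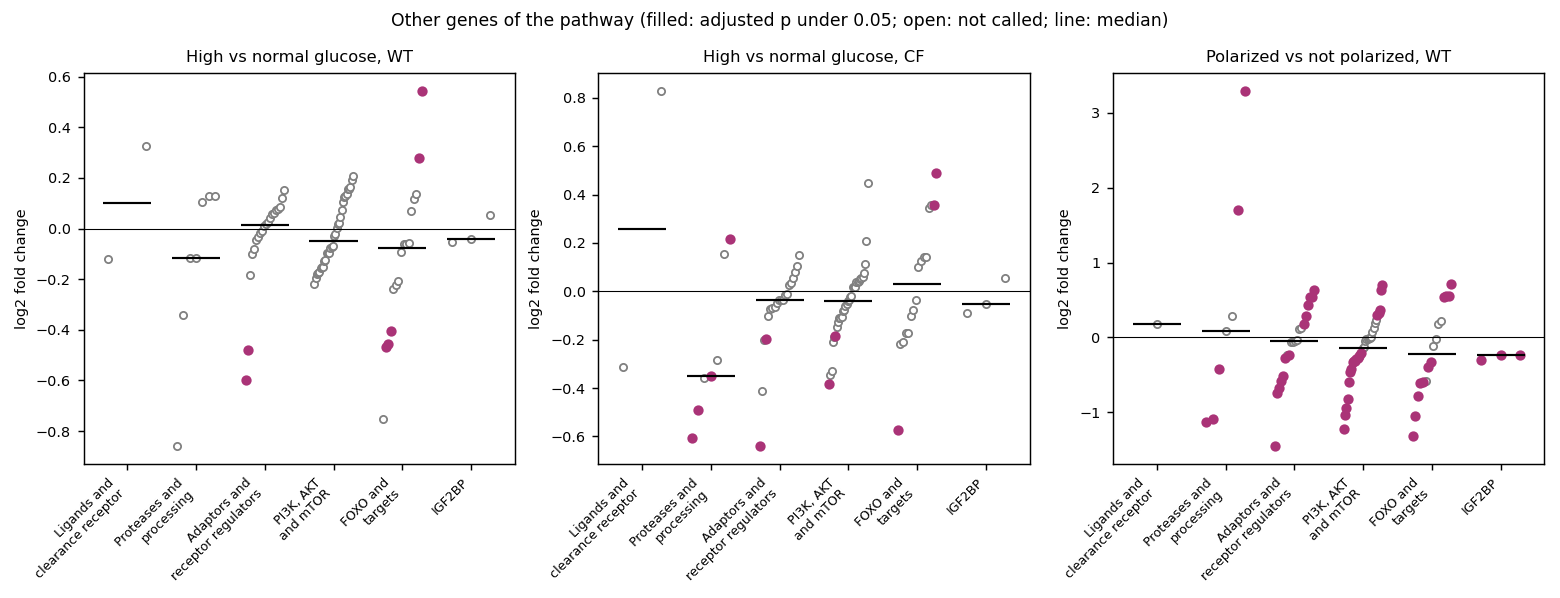
Log2 fold change (y axis, a different scale in each panel) of the tested genes of 6 pathway lists (x axis) for glucose in WT cells, glucose in CF cells and polarized against not polarized WT cells; filled points have an adjusted p under 0.05 and the line is the list median. Called genes number 7 of 80 in WT cells, 11 of 80 in CF cells and 51 of 79 in polarized cells, beside 484 and 1374 of 16338 and 8047 of 16105 over all genes, and in polarized cells ADAM12 stands highest at 3.29.

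Finally, the protein-coding genes whose log2 CPM over all 26 libraries were most like each member were taken among 12412 candidates, by Pearson's r as a description. The points share libraries, groups and the sets of numbers. For IGFBP3 the 3 libraries that were not polarized, at 83.0 to 85.3 FPKM, lay far below the other 23, at 1530 to 2108 FPKM. Its r therefore reflects mainly that contrast, and r within the other 23 libraries is not given. IGFBP3 was most like TMEM45A (r = 0.995) and EGLN3 (r = 0.987), an oxygen-sensing prolyl hydroxylase, and IGFBP7 most like C15orf48 (0.981) and GALNT3 (0.978). IRS2 was most like FOSL2 (0.973), an AP-1 subunit, and ARID3A (0.971), while IRS1 had the weakest partners, KCNMA1 (0.829) and SLC7A2 (0.803). IGFBP4 was most like ARSI (0.958) and P2RX4 (0.949), IGF1R like MED12 (0.947) and MAST3 (0.925), and INSR like SNX33 (0.945) and PFKP (0.943). For IGFBP2 they were MYL12B (0.930) and PBK (0.928), and for IGFBP6 they were SFN (0.878) and MT2A (0.872). IGFBP5 was too low to be compared in this way.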

How the data were processed

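RNA of 26 libraries in 5 groups was analysed from the deposited raw counts per gene and the deposited FPKM values, which the authors had scaled to gene length and library total. Reads were aligned with HISAT2 to hg38, per the submitters' processing notes; how reads were counted, and with which strand setting, is not given in the sources used here. Counts were fitted in R 4.3.3 with edgeR 4.0.16 (TMM, filterByExpr with minimum count 10 and minimum total 15, robust quasi-likelihood, Benjamini-Hochberg over all genes tested, calls at an adjusted p under 0.05). The first fit held the 23 glucose libraries in 4 groups (19 residual degrees of freedom), and another the 9 WT libraries in normal glucose, polarized or not (7 residual degrees of freedom). Errors are SD over libraries for FPKM and SE for log2 fold changes.

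The 10 genes were taken by symbol. The members, gene lists and tests were chosen with earlier results of these data known. All 10 genes were named in every comparison, with IGF1, IGF2, INS, IGFBP1 and IGF2R, and from each of 6 pathway lists up to 3 called genes per direction with a mean of at least 1 CPM. Beside each member the 2 protein-coding genes with the highest r were given. Lists were described by counts and medians. A few list genes taken by that rule are not reported here by name.

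Alternatives were DESeq2 1.42.0, RLE factors, no or a stricter low-count filter (CPM of at least 1 in 5 libraries, or 3), limma 3.58.1 on log2 of FPKM plus 1 or 0.1 (FPKM of at least 0.5 in 3 libraries, or unfiltered), fits with fewer or more groups, the library number as a replicate block, a term for numbers 1 to 3 against 4 to 6, each set alone, each library left out, and for levels CPM per kilobase. The pipeline was tested on simulated data. Same-numbered libraries were not treated as pairs in the main fits, since the labels do not say that a number marks a shared culture or day. Residual correlations of same-numbered pairs were above 0.1 in 4 of 5 pairs for glucose in WT cells and 5 of 6 in CF cells. Between the lines they were above it in 4 of 6 pairs in normal and 4 of 5 in high glucose, and in the polarized comparison in 0 of 3. Tables were read and figures drawn with Python 3.11.15 and matplotlib 3.10.9.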

Additional observations from a re-analysis of the deposited data

How the results depend on the processing

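Of 21 called results of the 10 genes, 14 kept their direction and their call under every alternative run: all 7 of the polarized comparison, IGFBP6 and IRS2 with glucose in WT and CF cells respectively, IGFBP2 between the lines at both glucose levels, IRS2 in normal glucose, and IGFBP4 and IGFBP6 in high glucose. The other 7 belong to IRS1, IRS2 and IGFBP4 and are given with their limits above. In WT cells the number of members called with glucose was 3, and 1 without the low-count filter and on FPKM plus 1 without a filter, 5 with a term for the sets of library numbers and 5 in numbers 4 to 6 alone. With each library left out it ran from 1 to 3 in WT cells and from 1 to 3 in CF cells. The difference of the response had 2 calls in numbers 4 to 6 alone, and the lines in normal glucose had 7 with the term for the sets. The cause was not tested. Over all genes, 484 calls with glucose in WT cells became 281 without high glucose library 3 and 1418 with the term, 1374 in CF cells became 891 without the low-count filter and 2812 with the term, 6 for the difference became 0 without WT high glucose library 2 and 387 in numbers 4 to 6 alone, and 3253 between the lines in high glucose became 4973 with the term.

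The replicate block, in which the library number is a factor, called 3 members with glucose in WT cells (IGFBP4 in place of IRS1), 3 in CF cells (INSR in place of IRS1), 0 for the difference, 6 and 6 between the lines and 8 in the polarized comparison. Over all genes it called 1092, 2561, 73, 5423, 4591 and 8885. The mean correlation of same-numbered libraries was 0.24 and 0.26 for glucose in WT and CF cells, 0.16 and 0.23 between the lines and -0.0090 in the polarized comparison, and 2, 2, 2, 2 and 1 pairs correlated best with their own number.

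Directions changed only in results that were not called. For the difference of the response, IGFBP3 was at -0.00079 and INSR at -0.0029 under the stricter filter, INSR at -0.0053 on FPKM plus 1 with or without a filter, -0.0058 with the replicate block and -0.014 with the term, and IGFBP5 at -6.2e-05 on unfiltered FPKM plus 1. In numbers 1 to 3 alone the difference was -0.043 for IGFBP3, 0.030 for IGFBP6, -0.034 for IGFBP7 and -0.25 for IRS1, and in numbers 4 to 6 alone it was -0.14 for IGFBP4, -1.0 for IGFBP5 and -0.12 for INSR. IGFBP3 between the lines in high glucose was at 0.000997 on FPKM plus 1 with or without a filter and 0.0010 on FPKM plus 0.1. In numbers 4 to 6 alone it was at 0.10 in normal and 0.22 in high glucose, where it was called, IGFBP6 was at 0.10 in normal glucose and -0.046 with glucose in CF cells, IRS2 at -0.048 between the lines in high glucose, and IGFBP5 at 1.04 and 0.035 with glucose in WT and CF cells. IGF2R in the polarized comparison was at -0.073 with the replicate block and -0.074 in numbers 1 to 3 alone.

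With single libraries left out, values near 0 crossed it. With glucose in CF cells IGFBP2 ran from -0.24 to 0.057, IGFBP5 from -0.24 to 0.14 and IGF1R from -0.028 to 0.10, and in WT cells IGFBP5 ran from -0.27 to 0.25. The difference ran from -0.059 to 0.26 for IGFBP2, -0.053 to 0.032 for IGFBP3, -0.31 to 0.22 for IGFBP5, -0.11 to 0.18 for IGFBP7, -0.073 to 0.061 for INSR and -0.037 to 0.18 for IRS1. Between the lines IGFBP3 ran from -0.030 to 0.014 in normal and from -0.061 to 0.024 in high glucose, and IGFBP2 in the polarized comparison ran from -0.044 to 0.25. Of 50 group means, 42 moved by less than 1 SD as CPM per kilobase; the other 8 were of cells that were not polarized. Counts of 2 to 19 reads limit IGFBP5, and 14 to 121 reads limit IGFBP2.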
